A study of Equus caballus with 24 samples.

Results

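Monocytes that carry IgE on their surface were compared between allergic and healthy Icelandic horses in the winter “Remission Phase”, when neither group had clinical signs. All libraries labelled with that phase were taken, which gave 12 of the 24 libraries of the series, 7 from allergic horses (A1 to A7) and 5 from healthy horses (H1, H2, H4, H6 and H7). The comparison asks how these cells differ between the groups in the months without midges, that is, without exposure to the allergen. Allergic horse A6 has a library that stands apart from the rest, so results are given with and without it.

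In Culicoides hypersensitivity, IgE against salivary proteins of biting midges arms basophils and mast cells, and monocytes can also bind IgE. The cells were sorted from blood as CD14low/IgE+/MHCIIhigh/CD16-/CD163- monocytes, cryopreserved before RNA was prepared, and sequenced as single-end reads of directional libraries of poly-A RNA. The horses lived together with like exposure to midges. The healthy horses were younger at the median, so age and the group cannot be fully told apart. All horses were mares except 1 gelding in the allergic group. Horses were not randomized to groups and each library came from 1 horse. They were sampled on different days over several weeks and the labels give no batch, so a batch and the group cannot be told apart. The deposited counts list genes by Ensembl identifier without a symbol, so the monocyte identity of the sorted cells could not be checked on marker genes.

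Depth overlapped between the groups. Allergic horses had between 17558184 (A6) and 40404429 (A3) reads counted on genes, with a median of 26430892, and healthy horses had 34537271 (H1), 21807434 (H2), 30677562 (H4), 25536799 (H6) and 36783634 (H7). The mean difference, allergic minus healthy, was -1300759 reads with an exact permutation p of 0.758. Genes with at least 1 read numbered 11802 in A6, 13130 to 13877 in the other allergic horses and 12934 to 13754 in healthy horses (exact p = 0.537). The shortfall of A6 was not removed at an equal depth. At its total, the lowest, 12871 genes would be expected in H2, and between 12997 and 13517 in the other allergic horses.

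The TMM factor, which scales a library so that most genes do not differ between libraries, did differ between groups. It averaged 0.959 ± 0.115 (SD, n = 7) in the allergic group and 1.07 ± 0.0220 (SD, n = 5) in the healthy group, and the difference of -0.111 had an exact permutation p of 0.0354. A factor under 1 accompanies a library in which some genes take an uncommonly large share of the reads. A6 had the lowest factor, at 0.731, and A1 followed at 0.903, while the highest allergic values, 1.06 in A4 and 1.05 in A7, lay within the healthy range. Without A6 the mean difference was -0.0734 (exact p = 0.0260), so the difference did not rest on that horse. With a healthy horse left out, the exact p was 0.0788 without H1, 0.0727 without H2, 0.0848 without H4, 0.0697 without H6 and 0.0606 without H7.

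The 100 most abundant genes took 45.0% of the reads of A6 and 40.4% of those of A1. In the other allergic horses they took 32.4% to 36.1%, and in healthy horses 32.8% to 34.2% (exact p = 0.158 for the groups). In A1, 2 genes alone took 4.55% and 2.71% of all reads, against at most 1.01% and 0.362% in any other horse. In the library of A1 from the summer “Clinical Phase” the same genes took 0.531% and 0.200%. The extreme abundance of that pair was thus found in only 1 library of A1. A6 had the next highest winter shares, at 1.01% and 0.362%, and had 0.368% and 0.165% in summer. The deposited counts give the genes no name.

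**Figure D1:**
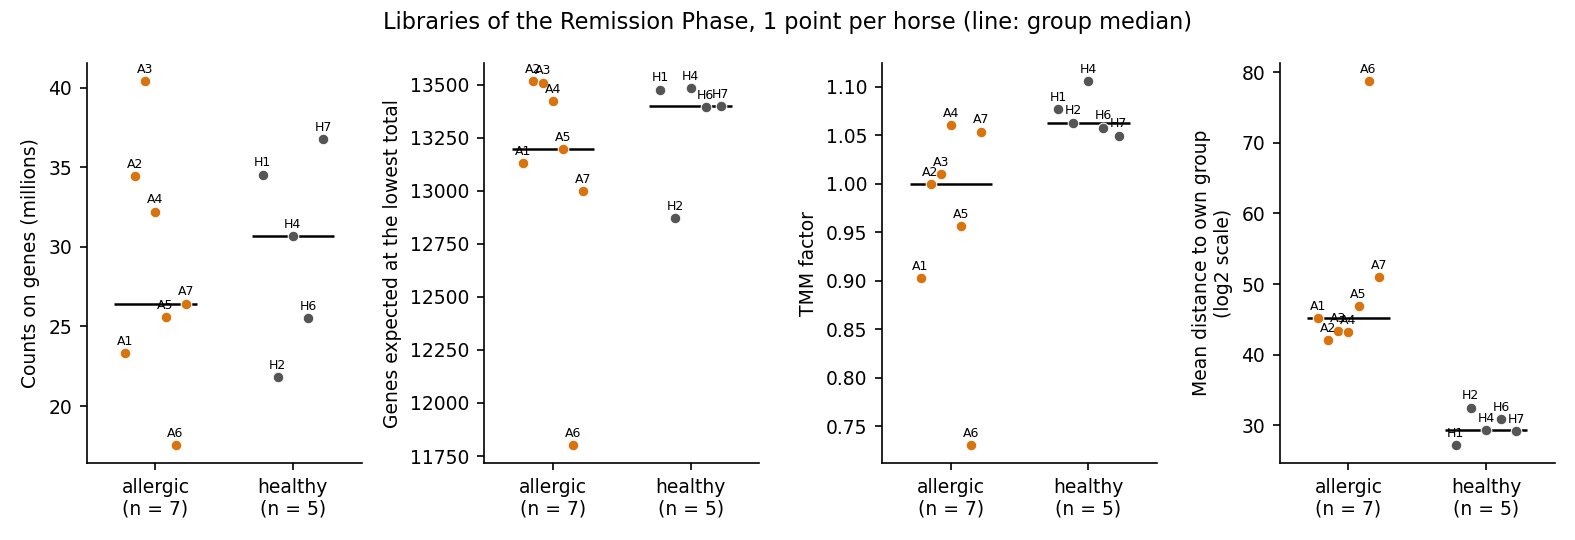
Reads counted on genes, genes expected at the lowest total, TMM factor and mean distance to the other horses of the group (log2 scale) for each horse in the “Remission Phase”; lines mark group medians. A6 has the lowest of the first 3 measures and a distance of 78.7, while every healthy horse is nearer to its group than any allergic horse.

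On the log2 scale of CPM (counts per 1000000 reads, TMM-normalized) with 4 added, the mean distance of A6 to the other allergic horses was 78.7. The other allergic horses had 42.1 to 51.0 and healthy horses 27.2 to 32.5. The first principal component held 45.7% of the variance and set A6 apart, at 69.7. Its group mates were at -6.33 to 1.69, and healthy horses at -11.8 (H1), 0.253 (H2), -12.2 (H4), -13.1 (H6) and -9.82 (H7). Except for H2, healthy horses were thus below the allergic ones, by far less than A6 was above them.

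The change in A6 ran through the whole table of genes. It lay outside the range of the other allergic horses in 8418 of 12670 tested genes, or 66.4%, where the other allergic horses did so in 15.1% (A2) to 29.5% (A7). Since only the highest and the lowest horse of a gene can lie outside, the share of A6 lowers those of the others. Against the mean of the other allergic horses, 713 genes were more than 1 log2 unit higher in A6 and 1067 more than 1 lower, with at most 143 and 126 for another allergic horse. The most abundant genes leaned upward. Of genes over 256 CPM, 21.2% were that much higher and 9.61% that much lower, and the median gene of that level was 0.30 higher. Lower genes prevailed at middle levels, with 127 higher and 217 lower at 4 to 16 CPM, 266 and 528 at 16 to 64, and 170 and 266 at 64 to 256. Under 4 CPM, where the added 4 limits how far a gene can fall, few genes moved that far.

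These differences did not recur in the summer library of A6 more often than over all genes. Of the 713 genes that were higher in A6, 36.2% lay on the same side in its “Clinical Phase” library, and of the 1067 lower ones 42.1% did, against 46.0% of all 12388 genes tested in both phases. That summer library was also the farthest from its group, at a distance of 56.2 against a median of 44.1, with 426 genes higher by more than 1 log2 unit. RNA integrity, which was measured before sequencing, was lower in a few allergic horses than in the healthy horses of this phase, A1, A2 and A6 if the library codes follow the study's numbering. It was lowest in A2, which was the allergic horse nearest to its group. Its part in these results was not tested.

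With all 12 libraries, 1 of 12670 tested genes (0.00789%) differed between the groups by edgeR's quasi-likelihood test at an adjusted p under 0.05, and it was lower in allergic horses. The Wald test of DESeq2 called 34 (0.268%), 17 higher and 17 lower. An unadjusted edgeR p under 0.05 was found for 1272 genes (10.0%), of which 807 were higher and 465 lower in allergic horses. Without A6, edgeR called 0 of 12562 genes (0%), with a smallest adjusted p of 0.0529, while 1650 genes (13.1%) had an unadjusted p under 0.05 and DESeq2 called 148 (1.18%). The gene that edgeR called with A6 was the first of its ranking in both. In bulk samples, fewer cells of a type and less RNA per cell cannot be told apart.

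The study's own gene names could be placed on identifiers only through the DESeq2 values it prints. Such a gene is named after its match, as in F13A1-matched, and its DESeq2 value is no independent evidence. The genes were picked by the study on these libraries, so their differences are given as a description.

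F13A1 encodes the A chain of coagulation factor XIII, the transglutaminase that cross-links fibrin, and monocytes and macrophages are a known source. The F13A1-matched gene (ENSECAG00000008295) ranged in allergic horses from 6.67 (A3) to 84.8 CPM (A4), with a median of 9.17. It was at 2.31 (H1), 1.51 (H2), 1.39 (H4), 1.11 (H6) and 0.984 CPM (H7) in healthy horses. All 7 allergic horses were above every healthy horse, but they did not form 1 level. A2, A4 and A5 had 53.2, 84.8 and 50.8 CPM, and A1, A3, A6 and A7 had 6.67 to 9.17. The log2 fold change, allergic over healthy, was 4.42 with a standard error of 0.77, and the edgeR adjusted p was 0.137. A6 belonged to the lower of these allergic horses, and without it the fold change was 4.59 (adjusted p = 0.0860). Over the settings run with all horses, the adjusted p went from 1.89e-06 by DESeq2 to 0.338, and in the edgeR fit of both phases the gene passed, at 0.0132. That fit treats the 2 libraries of a horse as independent, so its p may be too small, here and for the other genes that passed in it. Without A6 it passed in that fit (0.00969), with no filter (0.0278) and with A7 also left out (0.0340).

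C1R encodes a serine protease that starts the classical pathway of complement. The C1R-matched gene (ENSECAG00000021429) ranged from 1.19 (A1) to 17.6 CPM (A7) in allergic horses, with a median of 1.95. In healthy horses it was at 0.941 (H1), 0.777 (H2), 0.236 (H4), 0.741 (H6) and 0.673 CPM (H7). The groups did not overlap, and A7 and A6, at 7.87, were the highest. The fold change was 2.94 with a standard error of 0.72 (edgeR adjusted p = 0.472), and 2.81 without A6 (adjusted p = 0.192). Without A7 it was 2.19, the lowest over all left-out horses. With all horses, the adjusted p went from 0.00386 by DESeq2 to 0.489 over the settings run, and no edgeR setting called the gene.

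Among genes that were not matched to a name in the study, the pair of higher genes with the smallest edgeR p is given by identifier. Being chosen by their p, their differences are no further support for a group effect. ENSECAG00000023067 ranged from 32.3 (A4) to 40.8 CPM (A2) in allergic horses with a median of 38.5, and was at 15.4 (H1), 19.1 (H2), 21.6 (H4), 20.0 (H6) and 27.3 CPM (H7) in healthy horses. Unlike the F13A1-matched gene, it kept to a narrow band in the allergic group, with A6 at 40.5 CPM near the top of it. Its fold change was 0.83 with a standard error of 0.14 (adjusted p = 0.137) and 0.80 without A6 (adjusted p = 0.0917). The adjusted p went from 0.000126 by DESeq2 to 0.489 over the settings run with all horses, and the gene passed in the edgeR fit of both phases (0.0255).

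ENSECAG00000031204 ranged from 84.0 (A2) to 136 CPM (A1) with a median of 104 in allergic horses. Healthy horses had 49.5 (H1), 41.9 (H2), 38.9 (H4), 83.8 (H6) and 48.4 CPM (H7). H6 alone came close to the allergic horses, just under A2. The fold change was 1.01 with a standard error of 0.20 (edgeR adjusted p = 0.299), and the adjusted p went from 0.00134 by DESeq2 to 0.489 over the settings run with all horses. Without H6 the fold change was 1.25 and the gene passed the edgeR test (adjusted p = 0.0334).

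ATP6, a subunit of ATP synthase, and ND5, a subunit of respiratory complex I, are encoded in the mitochondrial genome. The ATP6-matched gene (ENSECAG00000027671) ranged from 221 (A6) to 500 CPM (A7) in allergic horses, with a median of 352. It was at 1721 (H1), 1656 (H2), 476 (H4), 1563 (H6) and 1253 CPM (H7) in healthy horses. A total of 4 healthy horses were above all allergic horses, and H4 lay within the allergic range. This was the gene that edgeR called, with a fold change of -1.92, a standard error of 0.26 and an adjusted p of 0.0387, and 6 of 7 allergic horses were below every healthy horse. Without A6, which had the lowest level, the fold change was -1.84 and the adjusted p 0.0529. In other fits without A6, edgeR called the gene with no filter, with total counts (adjusted p = 0.0314), and with A7 or H4 also left out.

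The edgeR call with all libraries depended on single libraries. When horses were left out 1 at a time, the ATP6-matched gene kept an edgeR adjusted p under 0.05 only without A7 (0.0449) and without H4 (5.86e-05). It was 0.164 without A1, 0.141 without A2, 0.0860 without A3, 0.149 without A4, 0.158 without A5, 0.192 without H1, 0.200 without H2, 0.0949 without H6 and 0.0662 without H7. The direction was kept throughout, at -2.14 to -1.82. Over the other settings with all horses, the adjusted p ran from 9.11e-09 by DESeq2 to 0.0606 by limma voom.

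The ND5-matched gene (ENSECAG00000027694) gave a like picture at a lower level. It ranged from 35.6 (A6) to 104 CPM (A7) in allergic horses with a median of 74.3, and was at 261 (H1), 230 (H2), 94.5 (H4), 308 (H6) and 236 CPM (H7) in healthy horses. H4 again fell among the allergic horses, under A4 and A7. The fold change was -1.57 with a standard error of 0.27 (edgeR adjusted p = 0.137), and -1.44 without A6 (adjusted p = 0.0860). Without H4 it was -1.76 (adjusted p = 0.00501). With all horses the adjusted p went from 5.14e-05 by DESeq2 to 0.338 over the settings run, and the gene passed in the edgeR fit of both phases (0.0132). Without A6 it passed there (0.0171), with no filter (0.0278) and with H4 also left out.

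The KEF40-matched gene (ENSECAG00000027676), which the study lists with mitochondrial genes, was identified from summer values and did not follow that order. It ranged from 95.8 (A2) to 678 CPM (A6) with a median of 165 in allergic horses, and was at 296 (H1), 394 (H2), 158 (H4), 294 (H6) and 340 CPM (H7) in healthy horses. A1, at 631 CPM, and A6 were above all healthy horses, and A2, A3 and A5 were below all of them. The fold change was -0.0020 with all libraries (edgeR adjusted p = 0.999) and -0.35 without A6 (adjusted p = 0.764). With a fold change this near 0, its direction turned under other settings.

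ENSECAG00000027675 and ENSECAG00000037937 were the lower genes with the smallest edgeR p among those not matched to a name in the study. The first ranged from 25.2 (A6) to 65.6 CPM (A4) with a median of 49.2 in allergic horses, and was at 121 (H1), 111 (H2), 65.3 (H4), 120 (H6) and 86.0 CPM (H7) in healthy horses. H4 was once more the healthy horse next to the allergic ones, just under A4. The second ranged from 77.4 (A1) to 129 CPM (A3) with a median of 105, against 163 (H1), 168 (H2), 220 (H4), 120 (H6) and 219 CPM (H7). Here H6 overlapped with A3, and H4 was the highest of all horses. Their fold changes were -1.10 and -0.77, with standard errors of 0.21 and 0.16 and edgeR adjusted p of 0.299 and 0.359. Without A6 they were -0.99 and -0.77. Both passed by DESeq2, with adjusted p of 0.00295 and 0.0135, and over the settings run with all horses the adjusted p reached 0.489 and 0.411. The first also passed in the edgeR fit of both phases (0.0237), and without A6 and H4 (0.0156).

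IGF2BP3 encodes an RNA-binding protein that is abundant in early development. The IGF2BP3-matched gene (ENSECAG00000016797) had 1 read in A3, 3 in A7 and 0 in the other allergic horses. Healthy horses had 23 (H1), 19 (H2), 24 (H4), 0 (H6) and 65 reads (H7). H6 was like the allergic horses, and its count of 0 allows up to 0.117 CPM on its total count, while the same limit in an allergic horse without a read was at most 0.171. Such limits cover counting error only. Group means were 0.0189 and 0.766 CPM, and the fitted fold change of -4.98 (edgeR adjusted p = 0.465) depends on how libraries without a read are handled. Without A6 it was -4.89 (adjusted p = 0.147), and with all horses the adjusted p went from 0.035 by DESeq2 to 0.489 over the settings run. With 1 horse left out, the fold change ran from -6.29 (without A7) to -4.46 (without H7).

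CCR10 is a chemokine receptor of cells that home to skin. The CCR10-matched gene (ENSECAG00000038719) had 3 reads in A5, 7 in H1, 15 in H7 and 0 in every other library of the phase. It did not reach 0.5 CPM in any library and was not tested. An exact permutation test on log2(CPM + 4) gave a p of 0.311. The 3 healthy libraries with 0 reads allow at most 0.0978 (H4), 0.117 (H6) and 0.138 CPM (H2) of their totals, and in summer healthy horses were at 0.569 to 1.45 CPM.

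**Figure D2:**
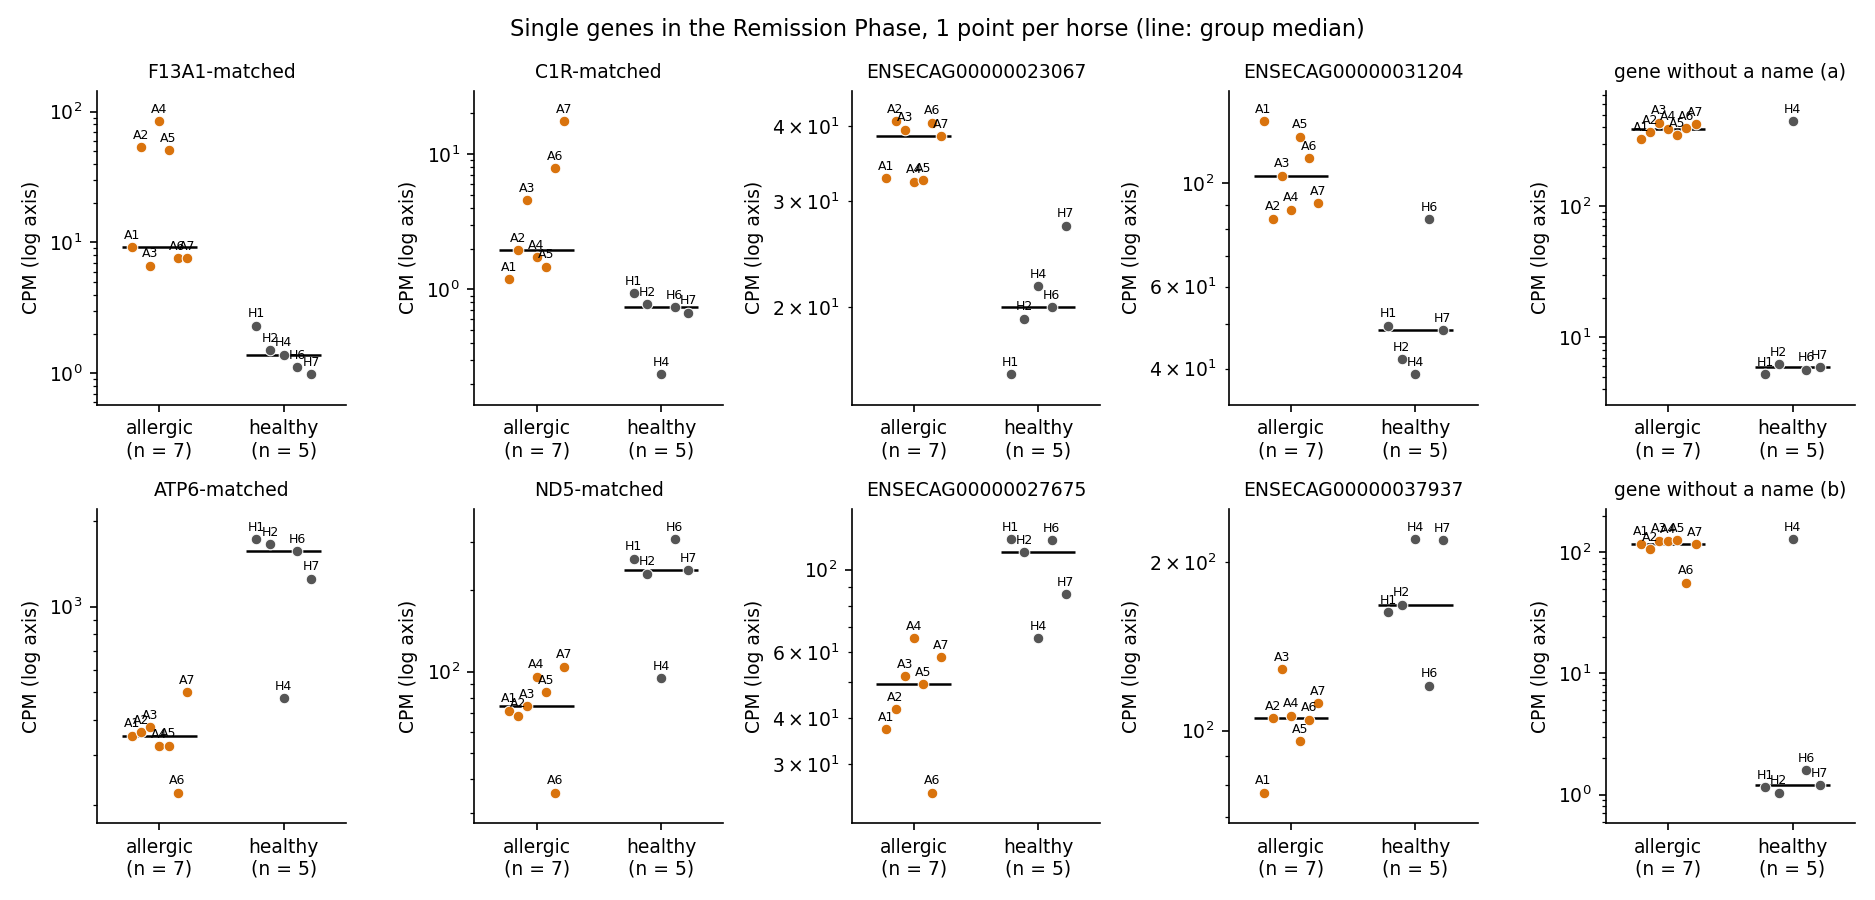
TMM-normalized CPM (log axis, different for each gene) of 10 genes, 1 point per horse, with a line at the group median. The top panels show genes that were higher in allergic horses and the lower panels, except the last, genes that were lower; H4 lies with the allergic horses for the ATP6-matched and ND5-matched genes and for the genes marked (a) and (b), which the next paragraph describes.

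The place of H4 among the allergic horses was sharpest in a pair of genes outside the named ones, noticed after edgeR called them only without H4. The first was at 323 to 432 CPM in allergic horses and at 447 in H4, but at 5.22 to 6.26 in the other 4 healthy horses. The second was at 56.2 (A6) to 126 CPM in allergic horses and at 128 in H4, but at 1.04 to 1.59 in those 4. With H4 in the healthy group, their fold changes of 2.02 and 2.05 had standard errors of 1.04 and 1.08 and edgeR adjusted p of 0.509 and 0.511. In this pair H4 lay with the allergic horses rather than with its labelled group, and the cause was not tested.

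Genes of that kind were few. Of 12388 genes tested in both phases, 2 had a gap of at least 3 log2 units between neighbouring horses with the same horses above it in winter and summer, and they were this pair. At a gap of at least 1, 14 genes kept the same horses on each side in both phases. None of them (0) divided all allergic from all healthy horses, while 3 divided the allergic horses and H4 from the other healthy horses, the third being the ATP6-matched gene. Only the widest gap of each gene was used, so smaller separations are not counted. The F13A1-matched gene, for example, had all allergic above all healthy horses in summer too, at 3.22 to 51.4 against 1.18 to 2.49 CPM.

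Leaving A6 out kept most directions and moved many ranks. Since the fits share 11 libraries, the comparison is a description. Of 12562 genes tested in both, 10852 (86.4%) kept the sign of the fold change and 1710 changed it. Those that changed were genes with small differences, with a median absolute fold change of 0.06 on the log2 scale, and 2 of them had an unadjusted p under 0.05 in either fit. Across genes, which are not independent replicates, the rank correlation was 0.907 for fold changes and 0.790 for p.

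Of the 20 genes with the smallest p with A6, 11 were among the first 20 without it, and of the first 100 and 1000, 53 and 761. The first 20 with A6 fell no lower than rank 85 without it, with a median rank of 18.5. The first 20 without A6 had a median rank of 16.5 with it, and the lowest stood at 236. An unadjusted p under 0.05 was found in both for 1131 genes, all of the same sign, 714 higher and 417 lower. It was lost without A6 by 134 genes and gained by 519, of which 260 were higher and 259 lower.

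Among the named genes, the ATP6-matched and ND5-matched genes kept ranks 1 and 2. The F13A1-matched gene moved from rank 4 to 3, ENSECAG00000023067 from 3 to 5, ENSECAG00000031204 from 5 to 16, and ENSECAG00000037937 from 7 to 20, while ENSECAG00000027675 kept rank 6. The C1R-matched gene moved from 27 to 113, the IGF2BP3-matched gene from 12 to 59, and the KEF40-matched gene from 12639 to 6880. All of them kept the sign of their fold change.

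Leaving A6 out also lowered the standard errors of edgeR. The median over genes was 0.22 with A6 and 0.16 without, and the error was smaller without A6 in 88.5% of genes. Genes with an unadjusted p under 0.05 had a median absolute fold change of 0.54 with A6 and 0.38 without. Under 0.5 on the log2 scale were 336 higher and 223 lower genes with A6, and 615 higher and 441 lower genes without it. Leaving A6 out thus brought smaller differences under that limit. Differences of more than 1 were nearly as many, with 195 higher and 80 lower with A6, and 223 and 83 without.

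**Figure D3:**
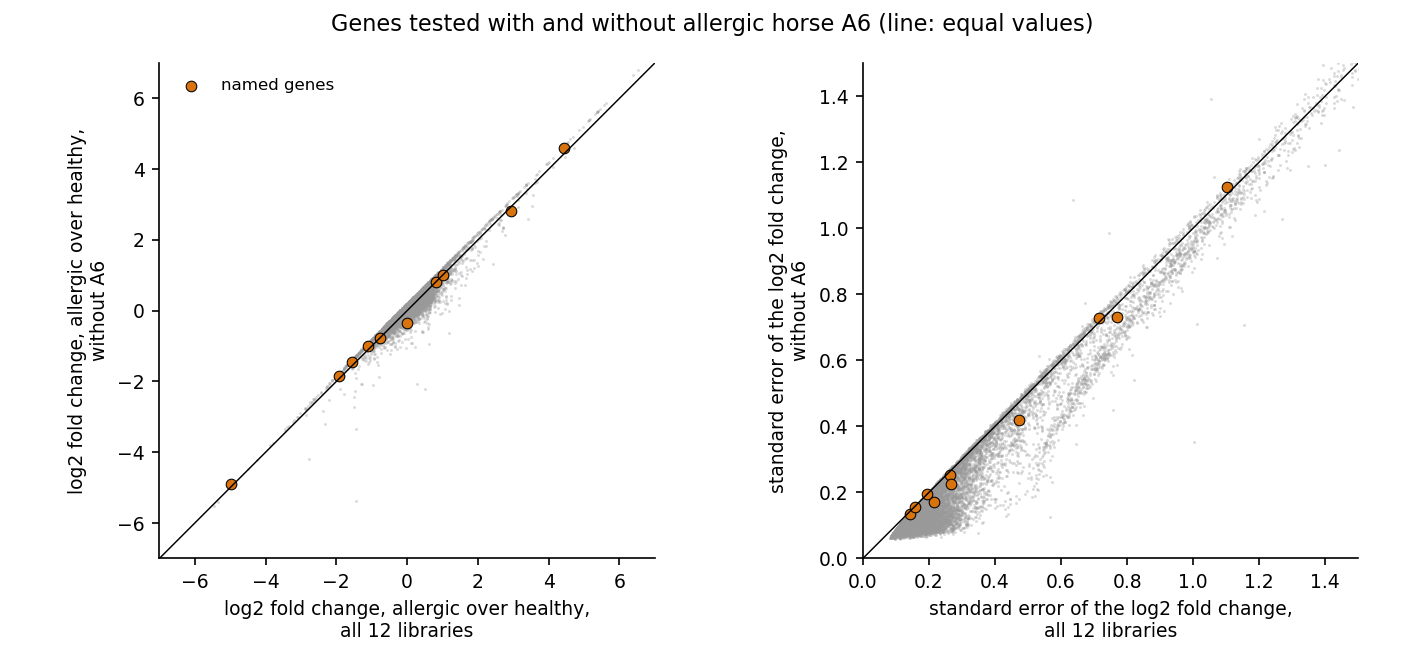
Log2 fold change, allergic over healthy (left), and its standard error (right) for each gene tested by edgeR, with all 12 libraries (horizontal) and without A6 (vertical); the line marks equal values and larger points the named genes, of which CCR10-matched was not tested. Fold changes of the named genes lie close to the line except the KEF40-matched gene, and standard errors lie below it in 88.5% of genes.

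All 34 genes that DESeq2 called with A6 were also called without it, with the same sign. They were 100% of the first list and 23% of the second, which gained 79 higher and 35 lower genes. DESeq2 gave an adjusted p to 12656 genes with A6 and to 12293 without, so the lists come from differing sets of genes. The 34 had a median absolute fold change of 0.90, and the groups did not overlap in 22 of them, 12 higher and 10 lower. Over all tested genes, the groups did not overlap in 191 (1.51%). As the 34 were called on these same libraries, a larger share without overlap follows from how they were picked.

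The 114 gained genes had smaller differences. Their median absolute fold change was 0.63 with A6 and 0.46 without, and 94 were under 1 without it. With A6, 11799 of all 12670 genes were under 1, a count from another fit that allows no direct comparison. The DESeq2 standard error of the gained genes had a median of 0.22 with A6 and 0.11 without. A6 lay outside the range of the other allergic horses in 99 of them (86.8%), against 20 of the 34 genes called in both fits and 66.2% of all tested genes. In 82 it stood on the side away from the healthy horses and in 32 on their side, where over all 12562 genes it stood away from the healthy horses in 7126. The DESeq2 standard error was smaller without it in 108, and in 10277 of all genes. As the gained genes were those that passed once A6 was left out, a smaller error follows from how they were picked. By edgeR, 136 of the 148 had an unadjusted p under 0.05 already with A6.

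A6 was not the only horse on which these counts hung. DESeq2 called 108 genes without A7 and 54 without A4, but 15 without A5, 12 without H1, 16 without H2, 15 without H4 and 16 without H7. Of the 34 genes, 33 were still called without A7 and 10 without H1. The number of genes that DESeq2 gave an adjusted p also changed, from 12656 with all horses to 7734 without H4. Its part in these counts was not tested. Among the 11 horses without A6, the 148 calls became 463 without A7 as well and 228 without A4, and 95 without A2, 78 without A5, 57 without H1 and 71 without H4. By edgeR, 807 higher and 465 lower genes with an unadjusted p under 0.05 became 522 and 304 without H1, and 483 and 276 without H4. With 1 horse left out of 12, DESeq2 calls and these edgeR counts were lower without any 1 of the healthy horses and highest without A6 or A7.

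**Figure D4:**
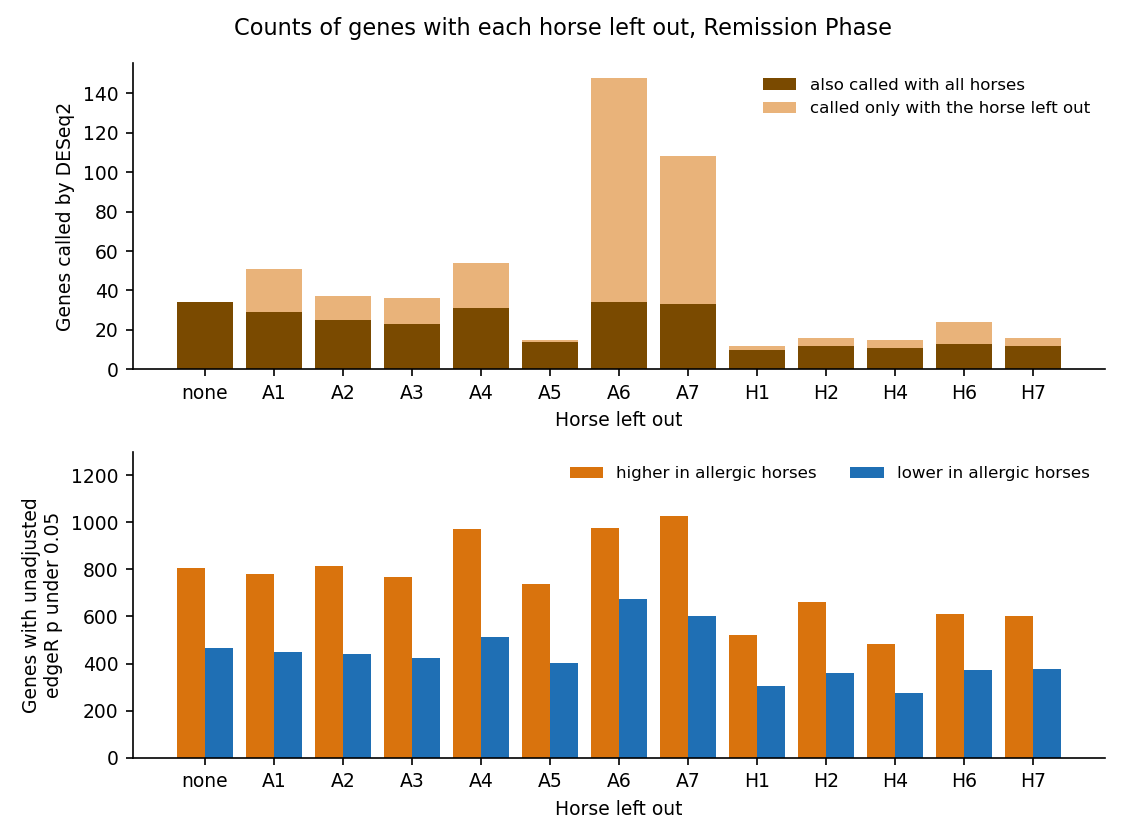
Genes called by DESeq2 (top) and genes with an unadjusted edgeR p under 0.05 (bottom) with all horses and with each horse left out, in the “Remission Phase”. DESeq2 calls run from 12 without H1 to 148 without A6, and the dark part of a bar counts genes that are also called with all horses.

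The balance of directions differed with the abundance of a gene, a pattern noticed after the data were seen. Of 578 genes over 256 CPM, 92 had an unadjusted edgeR p under 0.05 and were higher in allergic horses and 5 were lower, and 76.5% had a positive fold change, with a median of 0.19. Of 2674 genes at 4 to 16 CPM, 111 were higher and 145 lower, with a median of -0.05. That was the 1 level at which lower genes were the more numerous by this count, although medians were also under 0 at 1 to 4 (-0.05) and at 16 to 64 CPM (-0.01). The counts were 87 and 56 under 1 CPM, 66 and 66 at 1 to 4, 233 and 140 at 16 to 64, and 218 and 53 at 64 to 256. Without A6 the most abundant genes still leaned the same way, with 119 higher and 13 lower of 580 and a median of 0.11. In summer the median at that level was 0.03, with 13 higher and 6 lower of 611.

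The lean can be read off each library. The mean log2 level of genes over 256 CPM minus that of genes at 4 to 64 CPM was 4.74 to 5.21 in allergic horses (mean 4.88 ± 0.16, SD, n = 7). In healthy horses it was 4.64 to 4.74 (mean 4.70 ± 0.04, SD, n = 5). A4, at 4.743, was the nearest to the healthy horses, the highest of which was H7 at 4.741. Every allergic horse was thus above every healthy horse, barely in A4 and most in A6. In summer the groups overlapped, at 4.70 to 4.89 and 4.56 to 4.87.

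The balance of directions also depended on scaling. With total counts in place of TMM factors, the median fold change over all genes moved from -0.0039 to -0.16. On that scale, at which genes were counted only after the data were seen, 25.2% of genes with an unadjusted edgeR p under 0.05 were higher in allergic horses, against 63.4%. The change moves all genes nearly alike, and the medians became 0.01 over 256 CPM and -0.21 at 4 to 16 CPM. The imbalance among genes over 256 CPM was then nearly gone, with 29 higher and 23 lower of 578, and 33 higher and 40 lower of 580 without A6. Genes without overlap between the groups went from 113 above and 78 below to 31 above and 193 below (1.77% of 12670). Without A6 they were 136 above and 88 below (1.78%) on the TMM scale. A statement that more genes were higher than lower in allergic horses therefore holds for TMM and not for total counts.

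**Figure D5:**
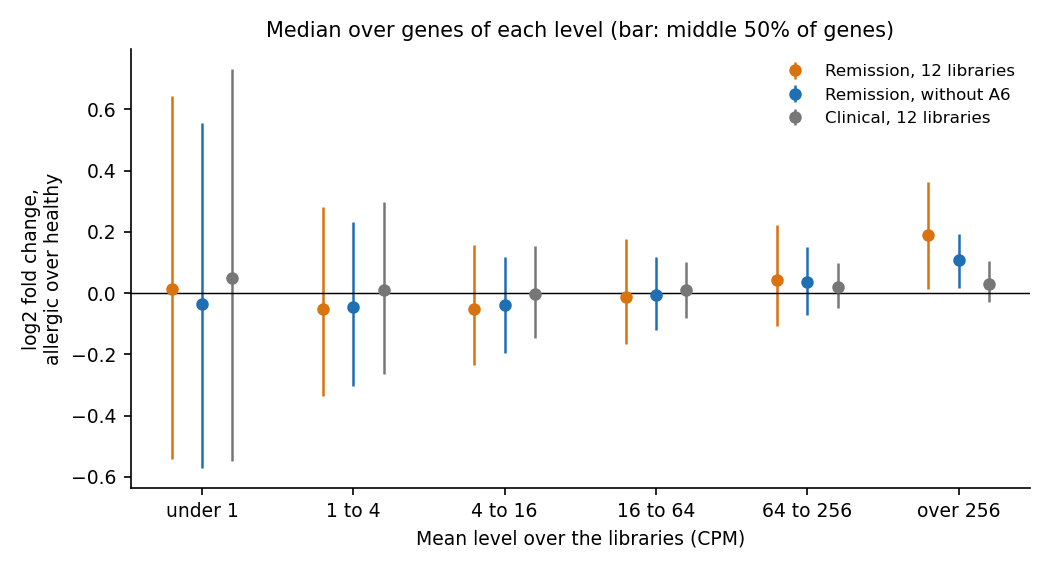
Median log2 fold change, allergic over healthy, of genes by their mean CPM over the libraries, for the “Remission Phase” with and without A6 and for the “Clinical Phase”; bars span the middle 50% of genes. The medians over 256 CPM are 0.19, 0.11 and 0.03.

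Allergic horses also differed more among themselves. The SD between horses was larger in the allergic group in 82.1% of genes, with medians of 0.24 and 0.13 on the log2 scale, and in 94.6% of genes over 256 CPM. Without A6 it was larger in 66.0% of genes and 81.9% of those over 256 CPM, and in summer in 57.1% and 49.9%. The mean distance within the group was 50.1 in allergic and 29.8 in healthy horses (exact permutation p = 0.0947), and without A6 38.9 and 30.1 (exact p = 0.0563). The difference did not pass an exact test at 0.05 with all horses. With 1 horse left out, the exact p ran from 0.0325 to 0.318 (without H1), and without A6 and a further horse from 0.0238 to 0.183 (without A7). It passed without A2 (exact p = 0.0390) and without A4 (exact p = 0.0325), and among the 11 horses without A6 also without A4 (exact p = 0.0397) and without H2 (exact p = 0.0238). In summer the distances were 45.1 and 42.0 (exact p = 0.698).

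The same horses were sampled in summer, which gives a separate set of libraries of the same animals. Of the 34 genes that DESeq2 called in winter, 28 had the same direction in summer, against 57.4% of all genes. All genes had a median absolute fold change of only 0.22 in winter, where a sign is easily turned. The 34 had a median of 0.90 in winter and, in that direction, 0.38 in summer. In summer 7 of the 34 had an unadjusted edgeR p under 0.05, against 444 of all genes (3.33%). Whether the groups differed more in 1 phase than in the other was tested for each gene, and edgeR called 0 of 13597 genes, with 505 at an unadjusted p under 0.05 and 0 called by DESeq2. With horse as a block, which pairs the libraries of a horse, it called 0 genes with 441 at that limit. No gene was thus shown to differ between the groups in 1 phase more than in the other, also where it passed a test in winter alone.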

How the data were processed

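The authors trimmed reads with Trim Galore 0.6.0, mapped them to EquCab3.0 with STAR 2.7.0e and deposited raw read counts per gene, without normalization. The counting tool and its use of strand are not known from these sources. All 30371 listed genes of the 12 libraries of the phase were read. Genes that reached 0.5 CPM in 1 library or more were tested with edgeR 4.0.16 (quasi-likelihood, TMM, Benjamini-Hochberg) in R 4.3.3, with DESeq2 1.42.0 and limma 3.58.1 as alternatives. Single values per library were compared with two-sided exact permutation tests. The p-values measure the spread between horses. Library codes give the same horses in both phases, so a fit with horse as a block was run for the difference between phases.

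Alternatives were RLE factors, no filter, filterByExpr, limma voom with sample quality weights, a fit of both phases (without a term for horse), a pseudocount of 1, the 1000 most variable genes, and each horse left out. Total counts without scaling factors were planned for the median fold change. Chosen after seeing the data were their use for calls, named genes and genes without overlap, DESeq2 and distances with each horse left out, genes expected at the lowest total, gaps between horses and levels of abundance.

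The members and lists were chosen with earlier results of these data known. Named genes were those that the study names with values matched by exactly 1 identifier, and the 2 higher and 2 lower other identifiers with the smallest edgeR p. Some genes the study names are not reported here. The reference table (assembly TB-T2T, 39335 genes) matched 0 identifiers, so marker and gene lists were not run.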

Additional observations from a re-analysis of the deposited data

Results flagged for a closer look

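In 38 groups of 5 or 7 horses, 11 had a library far from the others of its group. The limit used would flag about 1 in 20 groups of normally distributed values. CPM on few reads need not follow that distribution, and A6 was known to stand apart beforehand. The count of 11 is therefore not set against that rate. A6 accounts for 5 of the 11, all among the allergic horses. It had 11802 genes with a read, 11802 genes at the lowest total (which is its own), a median log2 level of 4.05, a difference of 5.21 between abundant and middle genes, and a distance of 78.7 to its group. Among the healthy horses, H2 had few genes with a read, 12934, and few expected at the lowest total, 12871. A7 was far above the other allergic horses for the C1R-matched gene, at 17.6 CPM. On 3 reads each, A7 was also flagged for the IGF2BP3-matched gene, at 0.108 CPM, and A5 for the CCR10-matched gene, at 0.123 CPM. As 0 reads in A6 allow up to 0.171 CPM, neither is shown to be above the other allergic horses. H6 stood above the other healthy horses for ENSECAG00000031204, at 83.8 CPM. The measures of A6 are not independent of each other, and those of H2 share the same counts.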

How the results depend on the processing

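With 12 libraries, the count of 1 gene called by edgeR was kept with RLE factors, filterByExpr and no filter. It became 34 by DESeq2, 0 by limma voom, 6 in the fit of both phases, 0 with total counts and 0 to 4 with 1 horse left out. Without A6, 0 called genes became 148 by DESeq2, 3 with no filter, 6 in the fit of both phases, 1 with total counts and 0 to 5 with a further horse left out. Higher genes with an unadjusted p under 0.05 numbered 324 with total counts and 483 to 1028 with 1 horse left out. Lower genes numbered 1022 by limma voom, 963 with total counts and 276 to 676 with 1 horse left out. DESeq2 calls ran from 12 to 148 with 1 horse left out, and from 57 to 463 without A6 and a further horse. The median fold change was -0.16 with total counts. Genes without overlap were 31 above and 193 below on that scale.

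The KEF40-matched gene turned direction, to 0.0183 by DESeq2, 0.0174 with RLE factors and 0.0036 with filterByExpr. It was -0.68 by limma voom and -0.26 with total counts, and lay between -0.35 and 0.16 with 1 horse left out. All other tested named genes kept their direction under every setting run. With 1 horse left out, the difference in total count ran from -3316036 (without H2) to 534174 (without A6) reads, in TMM factor from -0.128 to -0.0734, and in distance within groups from 8.77 to 23.4, or from 5.17 to 10.8 without A6. The calls without a horse come from fewer horses. The cause of the other changes was not tested.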
